A study of Arabidopsis thaliana with 18 samples.

Results

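The plastid genome of Arabidopsis carries 2 kinds of protein-coding gene, those for the photosynthetic complexes and those described here, which serve the expression of the plastid genome itself or have single roles outside the complexes. Probe sets were taken when the annotation gave them 1 plastid gene with a symbol beginning rpl, rps, rpo or ycf, or the symbol matK, clpP, accD, cemA or ccsA. This gave 26 genes with 1 probe set each, of 69 plastid genes with a probe set of their own and of 22746 probe sets tested. They comprise 7 genes for proteins of the large ribosomal subunit (rpl14, rpl16, rpl20, rpl22, rpl32, rpl33, rpl36), 8 for the small subunit (rps2, rps3, rps4, rps14, rps15, rps16, rps18, rps19), 4 for RNA polymerase subunits (rpoA, rpoB, rpoC1, rpoC2), ycf3, ycf4 and the 5 others named above. The remaining 43 plastid genes code for photosystem, cytochrome, ATP synthase, NADH dehydrogenase-like and Rubisco subunits and serve as the comparison set.

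Full rosettes of wild-type Col-0 plants 5 to 6 weeks old were collected at 0, 4, 8, 12, 16 and 20 h, and the RNA of 15 rosettes ground together was measured on 1 Affymetrix array per sample. The 18 arrays belong to 3 separately grown courses, which are named after their replicate letters as series A, B and C and have 1 array each at every time. No treatment or mutant was compared, and the labels do not give the hour of light. Values are signals, that is, intensities on a linear scale, and differences are given on the log2 scale after adding 1.1.

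Chloroplasts transcribe their genes with 2 kinds of RNA polymerase. One is a bacterial-type enzyme whose core subunits are encoded by rpoA, rpoB, rpoC1 and rpoC2 in the plastid and whose sigma factors come from the nucleus, and the other is a phage-type enzyme of nuclear origin that transcribes the rpoB unit, among others. Many plastid genes are read as multi-gene transcripts, such as rpoB-rpoC1-rpoC2, psaJ-rpl33-rps18, psaA-psaB-rps14 and the long ribosomal protein cluster that ends in rpoA, which are then cut, spliced and stabilised by nuclear-encoded proteins. Translation uses a bacterial-type ribosome whose proteins are encoded partly in the plastid and partly in the nucleus.

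The leaf markers measured were bright in every series. LHCB4.1, an antenna protein of photosystem II, had a mean signal of 4215 ± 556 in series A and 6989 ± 1377 in series C (SD, n = 6 arrays), while the root hair gene EXPA7 lay between 6.47 and 11.4 in the means of the 3 series. PYK10, a myrosinase abundant in roots, had series means between 175 and 205, and no flower marker on the list had a named probe set. Series C stood apart in its controls. For ubiquitin, a control for RNA integrity and labelling, the 3' over 5' signal ratio was 1.75 ± 0.09 on the arrays of series A, 1.65 ± 0.10 on those of B and 3.21 ± 0.65 on those of C, and the spike-in bioC had a mean of 565 ± 54.6 in series C against 155 ± 6.20 and 153 ± 6.92 (SD, n = 6). The brightest probe set of an array, controls included, lay between 11090.3 and 13157 in series C and between 4253 and 5725 in the other series. Across all probe sets, the array labelled 4 h B had a mean correlation of 0.945 with series A and C at 4 h and of 0.963 with them at 16 h, while that of 16 h B was 0.946 at 16 h and 0.967 at 4 h, so the labels of these 2 arrays may be exchanged. Growth and array handling of a series cannot be told apart, and in whole rosettes fewer cells of a type and less RNA per cell cannot be told apart either.

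The first question was whether these genes followed the time of day. None of the 26 was called over the 6 times (limma moderated F test with Benjamini-Hochberg adjustment, adjusted p below 0.05), against 6.53% of all probe sets. At an unadjusted p below 0.05 the count was 2, which is 7.69% of these genes against 15.9% of all probe sets. Both were called for a 24 h cosine, where the background was 12.5%, and both fell from 0 h to 12 h, a comparison in which 10.9% of all probe sets were called and 5.44% were lower. They were rpl33 and rps18, which lie next to each other on the plastid genome and are read as 1 transcript with psaJ. The range of the 6 time means had a median of 0.51 over the 26 genes and of 0.64 over all probe sets. The tests above left the offsets between series in the error. With the series as a block, given below, more of these genes were called. Their shares over the 6 times and for the cosine then exceeded those of all probe sets.

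**Figure D1:**
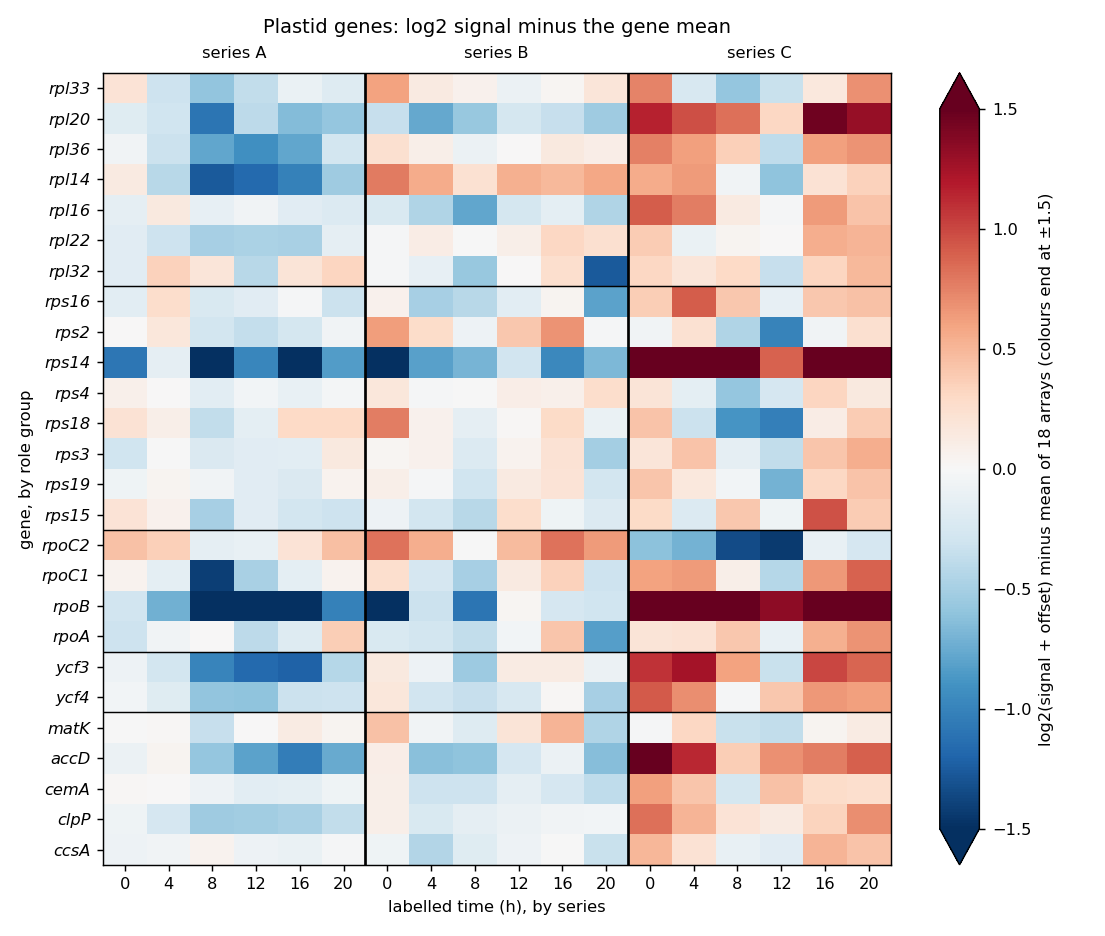
Log2 signal of each of the 26 genes (rows, by role and then position on the plastid genome) on each of the 18 arrays (columns, by series and time) minus the mean of that gene, with colours ending at a difference of 1.5. Most rows are paler or bluer in series A and redder in series C, rpoC2 runs the other way, and the array labelled 12 h C is lower than its neighbours in series C.

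The gene rpl33 codes for a protein of the large subunit that tobacco can lose at normal temperature but needs for recovery from chilling. Its signal in series A was 1842, 1284, 1054, 1231, 1493 and 1393 at 0, 4, 8, 12, 16 and 20 h. In series B it was 2427, 1751, 1668, 1494, 1630 and 1809.9, and in series C 2679.7, 1347, 1063, 1265, 1779 and 2568. Each series had its highest value at 0 h and its lowest at 8 or 12 h, and the 0 h arrays did not overlap with those of 12 h. The change from 0 h to 12 h was a fall by 0.79 on the log2 scale (standard error 0.24, adjusted p = 0.0415). The fitted cosine had a peak-to-trough difference of 0.80 ± 0.19 and a peak at 21.8 ± 0.90 h (estimate ± standard error, adjusted p = 0.0197).

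The neighbouring gene rps18 codes for a small-subunit protein. Its signal in series A was 601.5, 548.3, 399.9, 467.5, 637.5 and 637 at the 6 times in order. In series B it was 879.6, 539.5, 470.1, 520.8, 632.6 and 482.5, and in series C 697.1, 412.9, 279.6, 253.8, 557.3 and 670.8. The lowest arrays were again those of 8 or 12 h in all 3 series, and the 0 h and 12 h arrays did not overlap, but the highest array was at 16 h in series A. The fall from 0 h to 12 h was by 0.86 (standard error 0.25, adjusted p = 0.0355), and the cosine had a peak-to-trough difference of 0.88 ± 0.20 and a peak at 21.4 ± 0.88 h (adjusted p = 0.0168).

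Both calls of each gene were lost in some alternative settings of the analysis. The cosine was called in 29 of 36 settings for rpl33 and in 32 of 36 for rps18. The comparison of 12 h with 0 h was called in 24 and 25 of 36. For rpl33 the cosine's adjusted p rose to 0.0829 when series A was left out, to 0.315 when C was, and to 0.0522, 0.0518 and 0.0501 without the arrays labelled 0 h B, 8 h A and 8 h C. For rps18 leaving out series A gave 0.155 and leaving out series C gave 0.217, while leaving out 1 array never lost the cosine call. In the fits without the series as a block, the difference between 12 h and 0 h was not called for either gene without any 1 of the 3 series (adjusted p between 0.0704 and 0.229). That of rps18 was -0.54 (adjusted p = 0.18) without the array labelled 12 h C. In the same comparison, rpl33 missed the threshold without the arrays labelled 0 h B, 0 h C, 12 h A, 12 h B, 12 h C or 20 h B (adjusted p between 0.052 and 0.15), and rps18 without 0 h B or 0 h C (0.151 and 0.0787). With equal array medians the adjusted p of this comparison was 0.0526 for rpl33 and 0.0741 for rps18, and with eBayes without a trend it was 0.0611 and 0.0657.

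The genes on either side were not called. psaJ, a photosystem I subunit read ahead of rpl33 and looked at after its values were seen, had a range of time means of 0.27 and a cosine adjusted p of 0.899. rpl20, on the other side of rps18 and read from the opposite strand in plants, had a range of 0.49 and a cosine adjusted p of 0.902. The difference between these genes and rpl33 or rps18 was not tested.

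**Figure D2:**
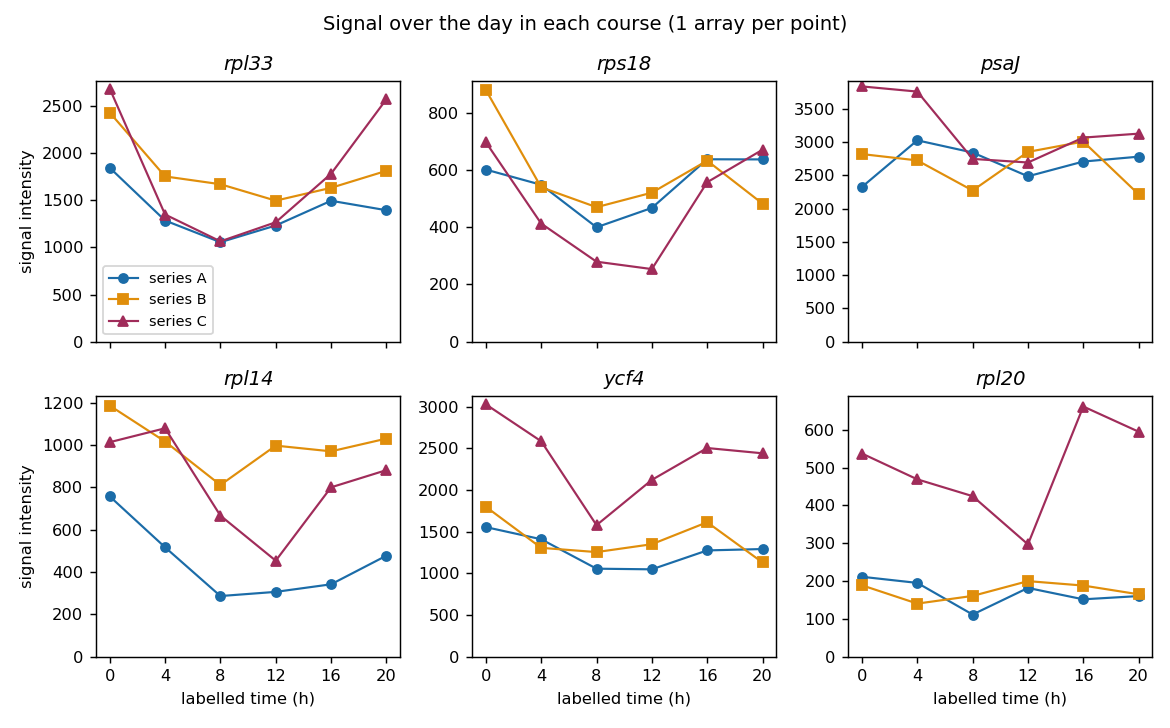
Signal (linear scale) by time of day for rpl33, rps18, their neighbours psaJ and rpl20, and rpl14 and ycf4, with 1 line per series and 1 array per point. Each line of rpl33 and rps18 has its lowest point at 8 or 12 h, though that of rps18 in series B is almost as low at 20 h. The lines of rpl14, ycf4 and rpl20 are set apart by series, and psaJ has no common low.

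Since the series were grown separately, the fit with the series as a block takes their offsets out of the error, and it gave more calls. Over the 6 times 5 of the 26 genes were called (rpoC2, ycf4, rpl33, rps18 and rpl14, adjusted p between 0.0168 and 0.0413), against 11.3% of all probe sets, or 19.2% of these genes. The 24 h cosine was called for 9 (rpoC2, rpoC1, ycf3, rpl33, rps18, clpP, rpl36, rpl14 and rpl22), or 34.6%, against 18.4%. The comparison of 12 h with 0 h gave 7 lower genes (rpoC2, ycf4, rpl33, rps18, clpP, rpl36 and rpl14) and none higher, or 26.9%, against 8.24% of all probe sets called lower. In the comparison set 3 of 43 genes were called over the 6 times, 4 for the cosine and 9 lower at 12 h than at 0 h with the same fit. All calls of the cosine had fitted peaks between 19.8 and 23.7 h.

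These counts depended on series A and C. With the block and without series B, 14 genes were called over the 6 times (22.9% of all probe sets), 13 for the cosine (21.6%) and 12 between 12 h and 0 h (19.6%). Without series A none was called in any of the 3 tests, where the background was 1.11%, 5% and 4.27%. Without series C the counts were 0, 1 and 1 (rpoC2 for the cosine and rpl33 for 12 h against 0 h), where it was 1.2%, 9.36% and 5.61%. Leaving out only the array labelled 12 h C gave 4 (9.29%), 6 (16.9%) and 3 (12.7%), in the order of 6 times, cosine and 12 h against 0 h. Leaving out those labelled 4 h B and 16 h B gave 6 (21%), 10 (26.1%) and 9 (21.4%).

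Whether or not they were called, most genes had lower means at 12 h than at 0 h. The log2 difference was below 0 for 25 of 26 genes, with a median of -0.36, against a median of 0.03 over all probe sets and -0.48 in the comparison set. It was above 0 for 11954 of the 22746 probe sets and for 4 of the 43 genes of the comparison set. From 8 h to 20 h the difference was above 0 for 24 of 26 genes, with a median of 0.29. It was above 0 for 11382 of the 22746 probe sets and for 38 of the 43 genes of the comparison set (median 0.15). Without the block none of the 26 was called (3.26% of all probe sets), while 3 had an unadjusted p below 0.05, against 14.7% of all probe sets. Between 4 h and 16 h, the times of the 2 arrays of series B with the unlike correlations, 14 of 26 differences were above 0, the median was 0.04 and none was called by limma (0% of all probe sets; 0 of the 26 at an unadjusted p below 0.05, against 1.72%). Differences above 0 were found here for 10226 of the 22746 probe sets and for 14 of the 43 genes of the comparison set.

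The time of the lowest array was counted in each series. In series A the lowest of the 6 arrays was at 8 or 12 h for 18 of the 26 genes (38.9% of all probe sets), and in series C for 24 (35%). In series B the 8 and 12 h arrays held the lowest value of 11 genes (36%), the 20 h array that of 8 (18.6%) and the 4 h array that of 4 (10.3%). The array labelled 12 h C alone was the lowest of its series for 19 genes, against 19.5% of all probe sets. It was also the lowest for 31 of the 43 genes of the comparison set. The median of the 26 genes on this array, relative to their mean in series C, was -0.54. That of the comparison set was -0.44 and that of all probe sets -0.01. The highest array was at 0 h for 12 genes in series A (17.2%), 10 in B (20.7%) and 8 in C (16.3%), and 11 genes of series B were highest on the array labelled 16 h B (17.6%), which may hold the 4 h sample.

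**Figure D3:**
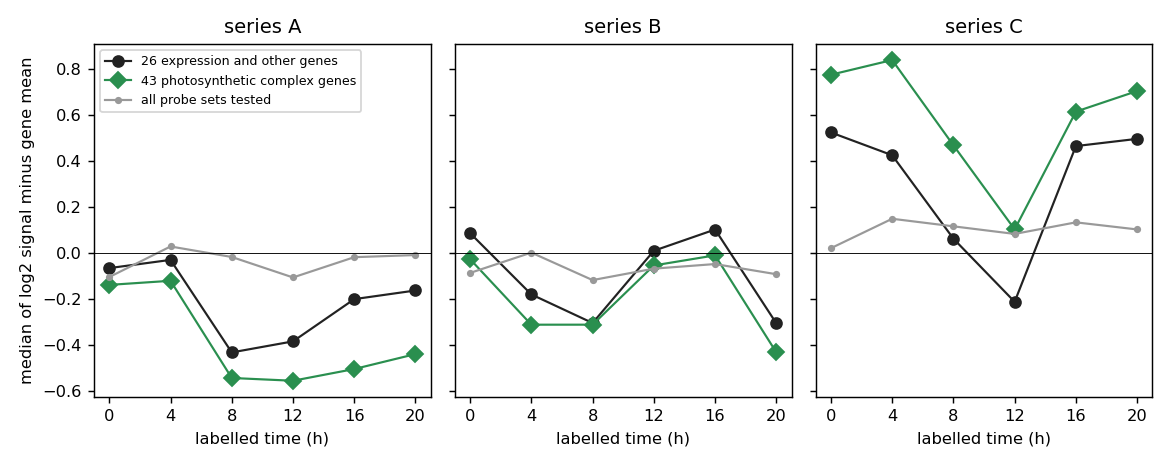
Median over genes of the log2 signal minus the mean of each gene, per array, for the 26 genes, the 43 photosynthetic complex genes and all probe sets, plotted by time with series A, B and C side by side. The medians of both plastid sets are higher in series C than in series A at every time, while those of all probe sets stay within 0.15 of 0.

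Of the genes called only with the block, rpoC2 and rpl14 had the lowest adjusted p for the cosine. rpoC2, for the largest subunit of the bacterial-type polymerase, had signals of 611, 575.4, 408.5, 415.9, 516.9 and 614.2 in series A, from 0 to 20 h. They were 788, 655.6, 448.5, 624.2, 790.7 and 697.9 in series B and 291.8, 274.8, 175.9, 166, 414.4 and 376 in series C. All 3 series had their lowest value at 8 or 12 h, but series C lay so far below the others that the time groups overlapped. With the block its peak-to-trough difference was 0.80 ± 0.16 with a peak at 20.9 ± 0.75 h (adjusted p = 0.00481), and it was the 1 gene called higher at 20 h than at 8 h (0.77 ± 0.17, adjusted p = 0.0173, background 6.86%).

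rpl14, for a large-subunit protein, had signals of 757.8, 517.4, 287, 306.7, 342.5 and 477.8 in series A. They were 1187, 1017, 811.7, 997.7, 970.7 and 1031 in series B and 1013.9, 1079.7, 667, 454.1, 800.7 and 881.9 in series C. The spread over a day was 2.64-fold in series A, 2.38-fold in series C and 1.46-fold in series B, where every array lay above all of series A. With the block the cosine had a peak-to-trough difference of 0.89 ± 0.16 and a peak at 23.7 ± 0.68 h (adjusted p = 0.0024), and 12 h lay 0.90 ± 0.20 below 0 h (adjusted p = 0.00653).

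The second question was how the series differed, with time as a factor in the fit. 16 of the 26 genes differed between series, against 27.8% of all probe sets. In series C 14 were higher than in series A, against 14.5% of all probe sets, and 1, rpoC2, was lower, against 7.31%. Compared with series B, series C had 13 higher (20.1%) and 2 lower, rpoC2 and rps2 (7.97%). Series B and A differed in 3 genes, rpl14, rpl36 and rpl22, all higher in B (0.506% of all probe sets called higher).

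The median difference between series C and A was 0.48 over the 26 genes, 0.15 over all probe sets and 1.09 over the 43 photosynthetic complex genes, of which 34 were called higher and none lower. Of the 590 probe sets outside the named plastid genes with a mean signal above 1000, 239 (40.5%) were called higher, with a median of 0.23. Shifting all arrays to equal medians took out the offset of all probe sets and left the 26 genes with a median of 0.33 and 12 called higher and 1 lower. Quantile normalization left a median of 0.28 with 12 higher and 2 lower, the second being rps4. Between C and B, equal medians gave 10 higher and 4 lower. The counts under these normalizations were not set against the shares of all probe sets called with them. The labels do not say how the labelled cRNA was primed, and plastid transcripts mostly lack the poly(A) tails that oligo-dT primers bind. The part of priming, RNA quality, labelling and signal range in these differences was not tested.

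**Figure D4:**
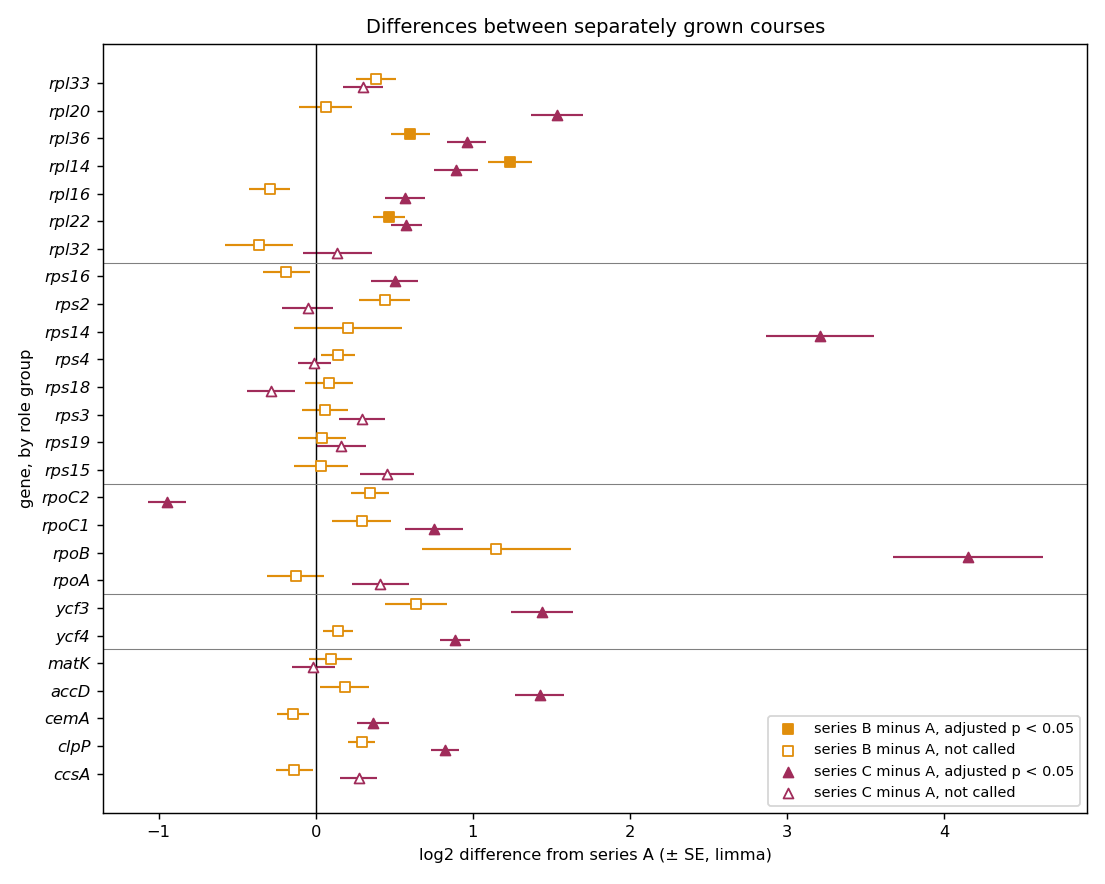
Log2 difference of series B minus A and of series C minus A for each of the 26 genes, ordered by role and then position on the plastid genome, with the standard error as bars and filled points for adjusted p below 0.05. rpoB and rps14 exceed 3 in series C, rpoC2 is the 1 gene called below 0, and rpl14 has the largest value for series B.

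The polymerase genes ran in different directions. rpoB had a lowest, median and highest signal of 1.1, 8.0 and 20.3 in series A, of 6.6, 20.0 and 25.7 in series B and of 65, 133.6 and 316.1 in series C. Every array of series C lay above all 12 others, and the difference from series A was 4.15 ± 0.48 (adjusted p = 8.04e-05), or 3.27 to 4.57 over the alternatives, since the signals of series A are so low that the size depends on the offset. rpoC1, which follows it in the same transcript, was higher in series C than in A by 0.75 ± 0.19 (adjusted p = 0.0123), with 147.6, 356.8 and 410.3 in series A, 278.4, 383.2 and 500.4 in series B and 293, 607.4 and 729.7 in series C. rpoC2, the third gene of that transcript, went the other way. It was lower in series C than in series A at all 6 times, by 0.95 on the log2 scale (log2 difference -0.95 ± 0.12, adjusted p = 0.000204), and lower than in series B by more (-1.29 ± 0.12, adjusted p = 2.82e-05). The lowest, median and highest signals of rpoC2 were 408.5, 546.2 and 614.2 in series A, 448.5, 676.8 and 790.7 in series B and 166, 283.3 and 414.4 in series C, so that series C and A overlapped by 1 array of each. rpoA, the alpha subunit, lies in the ribosomal protein cluster and was not called between C and A (0.41 ± 0.18, adjusted p = 0.119). It was called without series B (adjusted p = 0.003) and without the array labelled 20 h B (0.029). Compared with series B, rpoA was higher in series C (0.54 ± 0.18, adjusted p = 0.0401), a call lost in 14 of 26 alternatives.

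**Figure D5:**
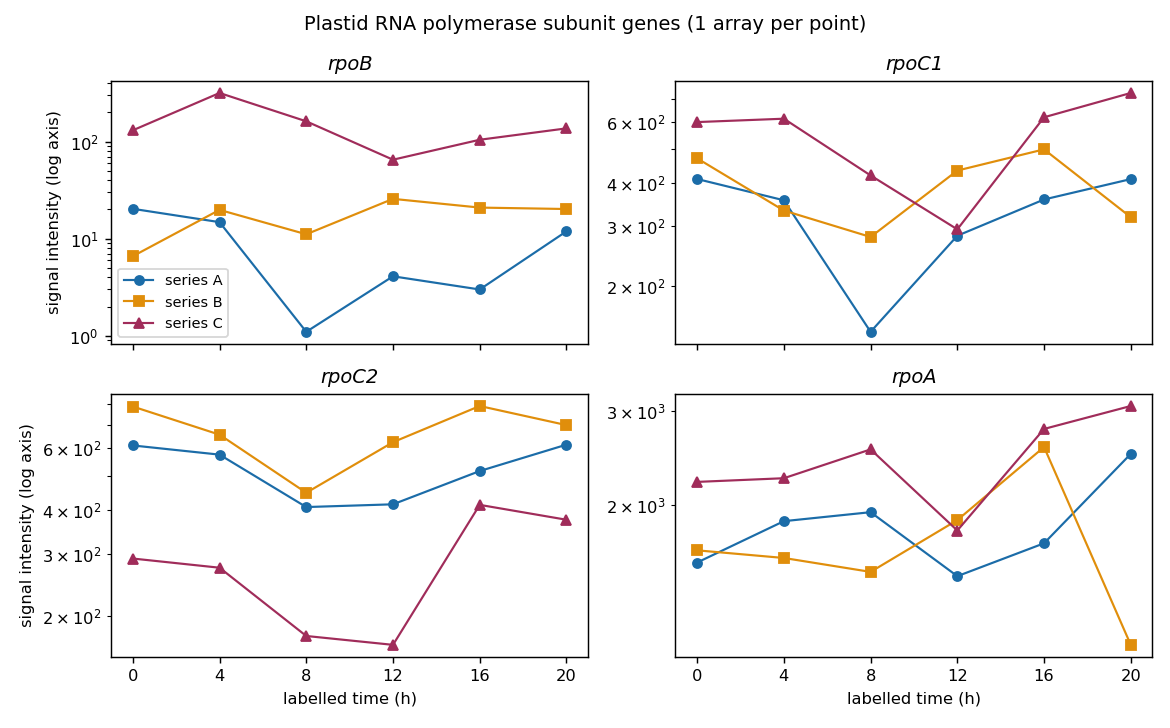
Signal on a log axis of rpoB, rpoC1, rpoC2 and rpoA by time, with 1 line per series and 1 array per point. Series C is above the others at all times for rpoB and below them at all times for rpoC2, and the lines of rpoA cross.

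rps2 lies next to rpoC2 and codes for a small-subunit protein. It did not differ between C and A (-0.05 ± 0.16, adjusted p = 0.851) and was called lower in C than in B (-0.49 ± 0.16, adjusted p = 0.0383), a call that was lost in 13 of 26 alternatives. Of the other small-subunit genes, rps14 had the greatest difference. Its lowest, median and highest signals were 17.3, 34.4 and 65.1 in series A, 15.4, 41.9 and 58.2 in series B and 133, 366.3 and 431.7 in series C. The groups did not overlap, and the difference between C and A was 3.21 ± 0.34 (adjusted p = 5.49e-05). rps16 was called higher in C than in A as well (0.50 ± 0.15, adjusted p = 0.0289), but not in 8 of 26 alternatives, among them without the arrays labelled 0 h A, 4 h C, 8 h A, 8 h C, 16 h A, 20 h A or 20 h C (adjusted p between 0.0547 and 0.0779). The 5 remaining genes, rps3, rps4, rps15, rps18 and rps19, had differences between -0.28 and 0.46 and were not called.

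Among the large-subunit genes, 5 of 7 were higher in series C than in A. rpl20, with 111.7, 171.2 and 211.5 in series A, 140.6, 176.8 and 200 in series B and 297.2, 503.2 and 661.6 in series C, had groups that did not overlap and a difference of 1.54 ± 0.17 (adjusted p = 5.98e-05). The differences of rpl36, rpl14, rpl22 and rpl16 were 0.96 ± 0.12, 0.89 ± 0.14, 0.58 ± 0.10 and 0.57 ± 0.13, and that of rpl16 was 0.22 (adjusted p = 0.163) after quantile normalization. rpl33 and rpl32 were not called (0.30 ± 0.13 and 0.14 ± 0.22).

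The genes rpl36, rpl14, rpl16, rps3, rpl22 and rps19 lie close together in the ribosomal protein cluster, yet the series offsets were not alike along it. rpl14 was higher in series B than in A by 1.24 ± 0.14 (adjusted p = 0.00134), while rpl16 beside it had a difference of -0.29 ± 0.13 (adjusted p = 0.316). Between C and B the order was turned, with -0.34 ± 0.14 for rpl14 (adjusted p = 0.0833) and 0.86 ± 0.13 for rpl16 (adjusted p = 0.000598). For rpl36, which tobacco plants can live without, and for rpl22 the differences between B and A were 0.60 ± 0.12 (adjusted p = 0.0378) and 0.47 ± 0.10 (adjusted p = 0.0435). The call was lost in 17 of 26 alternatives for rpl36 and in 18 of 26 for rpl22, up to an adjusted p of 0.124 and 0.141 without series C. Between C and B, rpl36 was called (0.36 ± 0.12, adjusted p = 0.0448), but not in 20 of 26 alternatives. The difference between these genes was not tested.

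The photosystem I assembly genes ycf3 and ycf4 were both higher in series C than in A. For ycf3 the lowest, median and highest signals were 230.2, 334 and 507.6 in series A, 367.2, 545.8 and 592 in series B and 426, 1029 and 1274 in series C, with a difference of 1.44 ± 0.20 (adjusted p = 0.000302). The groups overlapped through the array labelled 12 h C, the lowest of series C. ycf4 had 1049, 1283.7 and 1555 in series A, 1131, 1328 and 1799 in series B and 1578, 2472 and 3027 in series C, a difference of 0.89 ± 0.10 (adjusted p = 5.98e-05). Series C lay above all of series A and overlapped series B.

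Among the others, accD and clpP had groups that did not overlap. accD, for a subunit of the plastid acetyl-CoA carboxylase that starts fatty acid synthesis, had 170.8, 221.9 and 362.4 in series A, 225.6, 263.3 and 377.6 in series B and 456.8, 628 and 992.4 in series C, a difference between C and A of 1.43 ± 0.16 (adjusted p = 6.04e-05). clpP, the plastid-encoded proteolytic subunit of the stromal Clp protease, had 1547, 1661 and 2134 in series A, 1902, 2120 and 2375 in series B and 2453, 2993 and 3966 in series C, a difference of 0.82 ± 0.09 (adjusted p = 5.17e-05). With rpoB, rps14 and rpl20 these are the 5 genes with every array of series C above all 12 others, against 2.77% of all probe sets. None had every array of series C below, against 1.16%.

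The 3 remaining genes are cemA, ccsA and matK. cemA, an envelope protein that in Chlamydomonas bears on the uptake of inorganic carbon, was higher in C than in A by 0.36 ± 0.10 (adjusted p = 0.0215). After quantile normalization the difference was -0.02, and it was not called either with equal medians (adjusted p = 0.174) or without the arrays labelled 0 h A, 0 h C, 4 h C, 12 h A, 12 h C or 16 h A (0.0503 to 0.0632). ccsA, needed to attach haem to c-type cytochromes, was called over the 3 series (adjusted p = 0.0464), but not in 22 of 28 alternatives, where the adjusted p reached 0.557. It was higher in C than in B (0.41 ± 0.12, adjusted p = 0.0225), a call lost in 8 of 26 alternatives, and was not called between C and A (0.27 ± 0.12, adjusted p = 0.115). matK, the maturase that helps to splice group II introns, had medians of 1464, 1527 and 1462 in series A, B and C and a difference between C and A of -0.02 ± 0.14 (adjusted p = 0.942).

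The direction was also read time by time. Series C lay above series A at all 6 times for 15 genes (18.7% of all probe sets) and above series B for 9 (17%), and series B lay above series A for 8 (4.38%). rpoC2 was below both at all 6 times. matK, rps2 and rps4 had series C above series A at 3 of the 6 times.

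Nuclear genes that serve the same processes were mostly without a named probe set, and 22 of 109 on 9 lists had a value. The sigma factors, the proteins associated with the bacterial-type polymerase and the nuclear subunits of acetyl-CoA carboxylase had none. Over the 6 times 1 of the 22 was called, against 6.53% of all probe sets. It was CAF1, whose product acts in the splicing of plastid group II introns. In the order of the series, its signals were 57.9, 64.4 and 60.6 at 0 h against 151.2, 131.2 and 110.1 at 12 h, without overlap, and its range of 1.08 ran with the lowest mean at 0 h and the highest at 12 h (adjusted p = 0.00721). CLPF, an adaptor of the Clp protease, was called for the cosine with a peak at 19.9 ± 0.94 h (adjusted p = 0.0257) and was higher at 20 h than at 8 h (0.66 ± 0.17, adjusted p = 0.0455). Of all probe sets 12.5% were called for the cosine, and 3.26% between 20 h and 8 h in either direction. With the block, CLPS1, a Clp substrate selector, and PRPL3, a plastid ribosomal protein, were called for the cosine as well (adjusted p = 0.00911 and 0.028), against 18.4% of all probe sets.

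The nuclear genes did not share 1 offset between series. The 2 leaf markers measured were higher in series C than in A by 0.72 and 0.97. Smaller offsets were measured for the nuclear genes of plastid ribosomal proteins. None of the 10 measured of 37 was called over the 6 times by limma (6.53% of all probe sets). Between series 5 differed (PRPL17, PRPL29, PRPL3, PRPL34 and PRPL5), against 27.8% of all probe sets. Between C and A 5 were higher (14.5%) and 1, PRPL5, lower (7.31%), and the median difference was 0.17, against 0.48 for the 26 plastid genes. The highest was PRPL29 at 0.40 ± 0.07 (adjusted p = 0.0025). Of the 6 nuclear Clp subunits measured, CLPR3 (-0.37 ± 0.06, adjusted p = 0.00152) was lower in series C than in A and CLPT1 lower in C than in B (adjusted p = 0.00644), and of the 2 cytochrome c assembly partners measured, CCS1 was lower (-0.23 ± 0.07, adjusted p = 0.0268). The shares of all probe sets called lower were 7.31% between C and A and 7.97% between C and B. CRP1, which acts on plastid RNA, was called over the 3 series (adjusted p = 0.0411) and in neither contrast with series C. RPOTmp, the phage-type polymerase shared by mitochondria and plastids, had series means between 6.15 and 12.0 and was called in no comparison, and FTSHI3 of the import motor was not called over the 6 times or between series either. The difference between nuclear and plastid genes was not tested.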

How the data were processed

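The deposited values are signal intensities, 1 per probe set and array, made by the authors with MAS5 per the submitters' processing notes (the sources used here do not give its version). No detection calls were used, so whether a signal lay above background could not be judged. The 64 control probe sets were left out, and the other 22746 were analysed as log2(signal + 1.1), the 10th percentile of all values, which understates changes of dim genes. The number of arrays limits the precision. The files name no genome build. Genes came from the platform annotation, updated through a RefSeq table of assembly TAIR10.1, and neighbours are by gene order there, without strand. Signals of different probe sets were not compared.

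Time was tested in limma 3.58.1 (R 4.3.3, eBayes with trend, Benjamini-Hochberg over all probe sets, calls at adjusted p below 0.05) with 12 residual degrees of freedom, as 6 means, as contrasts and as a 24 h cosine, and series with time as a factor (10 residual degrees of freedom). The series letters mark courses grown separately, per the design text, and so pair arrays across times. The mean correlation of arrays, as deviations from time means, was 0.174 in series A, 0.161 in B (lowest -0.277) and 0.328 in C. The fit with the series as a block is therefore given beside the results it changes. Between letters and times the mean was -0.109, which is no separate evidence, since the deviations of the letters sum to 0 at each time. Alternatives were other normalizations, offsets, a filter on dim probe sets, eBayes without trend, and leaving out series or arrays. The fits without the block were tested on simulated data with independent noise, which held no offsets between series in the tests of time. The fit with the block was not simulated. No arrays were identical, and no sample column was left unused. All member genes could be named by rule, and nuclear genes where called over time or between series. Members and lists were chosen with earlier results of these data known.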

Additional observations from a re-analysis of the deposited data

How the results depend on the processing

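Of 286 counts of genes under alternatives, 225 stayed within 1.5 times the count reported. These include counts of 0 where 0 was reported, and many alternatives left out only 1 array. For 12 h against 0 h the count was 0 with equal array medians and 0 with eBayes without a trend. For series B against A it was 1 without a trend and 1 when 4 h B and 16 h B were left out. With the replicate block it was 5 over the 6 times, 7 for 12 h against 0 h, 1 for 20 h against 8 h and 9 for the cosine. The block was then joined with other choices, picked after seeing the data. With quantile normalization these counts were 5, 7, 2 and 9, with equal medians 5, 8, 1 and 7, without the array labelled 12 h C 4, 3, 2 and 6, and with 4 h B and 16 h B left out 6, 9, 2 and 10, with 1 for 16 h against 4 h. For the normalizations, these counts were not set against the shares of all probe sets called.

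Leaving out 1 series or array gave 0 to 0 over the 6 times, 0 to 2 for the cosine, 0 to 2 for 12 h against 0 h, 1 to 18 between series (1 without series C), 1 to 3 for B against A, 13 to 17 for C against A and 11 to 17 for C against B. With the block, where only each series and the array labelled 12 h C were left out, the ranges were 0 to 14, 0 to 13 and 0 to 12 for the first 3, 0 to 1 for 16 h against 4 h and 0 to 5 for 20 h against 8 h. Of 612 settings for 22 calls of single genes (2 each for the cosine and 12 h against 0 h, 3 for B against A and 15 for C against A, those of C against B and between series not being counted), 526 kept the call, 85 lost it and 1 turned the direction (cemA, C against A, -0.021 with quantile normalization). The cause was not tested. The probe set per gene could not be varied, as each gene has 1. Without detection calls, the low signals of rpoB and rps14 in series A and B limit how well their size is known.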

Other observations

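A further 7 probe sets match genes of this kind that lie in 2 copies in the inverted repeat of the plastid genome and were outside the rule. In series C against A, rpl2 had a log2 difference of 0.88 ± 0.11 (adjusted p = 0.000151 in limma), with mean signals of 3271 ± 192 in series A, 3810.2 ± 427 in B and 6098 ± 1100.5 in C (SD, n = 6). rpl23, rps7 and ycf1 were higher by 0.57 ± 0.13, 0.73 ± 0.12 and 1.02 ± 0.17. ycf2 had means of 14.7 ± 3.74, 16.3 ± 4.92 and 95.2 ± 27.0, a difference of 2.58 ± 0.26 (adjusted p = 4.13e-05), with every array of series C above the other 12. None of the 7 was called over the 6 times or for the cosine, with or without the block.

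The 2 probe sets of rps12, a gene spliced together from separate transcripts, gave different answers. The first had means of 510 ± 109.6 in series A, 659 ± 50.2 in B and 365 ± 84.0 in C and was lower in C than in A (-0.49 ± 0.14, adjusted p = 0.0221). The second had 1964 ± 196, 2186 ± 107 and 2410.1 ± 547 and was not called (0.27 ± 0.11, adjusted p = 0.0997). The difference between them was not tested.

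The deposited signals of rps2 and rpl14 were equal on 2 arrays, at 667 on the array labelled 8 h C and 454.1 on that labelled 12 h C. On the other arrays they differed, and the cause was not tested.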
